A study of Mus musculus with 33 samples.

Results

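Fads2, Tango6, Lrch1, Gng7 and Ss18 are genes whose summed intragenic regions gave less RNA in unactivated ZMYND8-deficient CH12 cells than in wild-type cells. This held in both knockout lines, KO1 and KO2. In group means it also held in activated cells, except for Gng7 in KO1. The 5 genes are described here by line, activation state and genomic region. They are 5 of 10750 genes with at least 1 measured region wholly inside their span, and 5 of the 4510 whose summed value passed a low-count filter. All 5 passed that filter. They were chosen because their values were lower in the KO lines than in the WT lines of these same libraries, so every KO against WT difference given for them is a description and carries no p-value. CH12 is a mouse B lymphoma line that can switch from IgM to IgA. Total RNA was sequenced from 4 lines: KO1 and KO2, each a clone lacking ZMYND8, then a WT clone, and the parental WT line. Every line was cultured for 48 h either activated or unactivated, in 3 separate libraries per line and state, so 24 libraries fall into 8 groups of 3. The activating stimulus is not named in the labels used here, and the labels call the 3 cultures repeats without saying how far they are separate, so p-values measure only the spread between these cultures.

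ZMYND8 recognizes acetylated and methylated histones with a PHD finger, a bromodomain and a PWWP domain, and it is known as a regulator of promoters and enhancers, those of the Igh locus in B cells among them. The 5 genes have no common pathway in textbook accounts. FADS2 carries out the entry step in the desaturation of essential fatty acids in the endoplasmic reticulum. TANGO6 takes its name from a screen in Drosophila cells for factors of Golgi organization and transport. LRCH1, with leucine-rich repeats and a calponin homology domain, restrains the DOCK8 and CDC42 pathway in T cells. GNG7 is a gamma subunit of heterotrimeric G proteins, and SS18 is a subunit of BAF chromatin remodelling complexes.

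The deposited tables hold estimated counts for annotated transcripts and for numbered genomic regions. A gene value is the sum over the regions that lie wholly inside the span of that gene and of no other gene, scaled for library depth (CPM). It leaves out the reads assigned to annotated transcripts, so it is not the expression of the whole gene, and the exons or introns that a region covers were not looked up. Total estimated counts were between 28.99 and 34.07 M per library. The targeted gene itself was no check of the labels at this level: the summed regions of Zmynd8 had a lowest, median and highest value of 1.62, 1.7 and 2.64 CPM in the unactivated KO libraries, against 1.23, 1.47 and 1.97 CPM in the unactivated WT libraries. In activated cells they had 2.83, 3.34 and 4.27 CPM in the KO libraries, against 2.02, 2.35 and 3.22 CPM in the WT libraries. The KO against WT log2 change was 0.32 ± 0.17 (SE) in unactivated cells, with an adjusted p of 0.335 in edgeR. It was 0.52 ± 0.16 in activated cells, with an adjusted p of 0.0418 in edgeR, so the value was called higher there. These regions may lie outside the part that was targeted. B cell markers were measured in every library, 6 of 10 through a region. Their summed levels were 35.2 to 71.4 CPM in KO libraries and 20.6 to 56.0 CPM in WT libraries over both states. By gene, the mean over 24 libraries was 24.7 CPM for Ebf1, 9.1 for Pax5, 6.52 for Blnk and 3.94 for Blk. Cd79a and Cd22 were low, at 0.216 and 0.0855 CPM. T cell and myeloid markers, each measured through 3 genes, summed to at most 1.1 and 1.23 CPM. The T cell genes Cd5, Lck and Zap70 had means of 0.28, 0.399 and 0.0402 CPM. The myeloid genes Csf1r, Itgam and Adgre1 had means of 0.109, 0.548 and 0.157 CPM. Thus Cd79a and Cd22 did not stand apart from the T cell and myeloid genes. The fibroblast marker Col1a1 was at 0 in every library. The T cell marker sum was 0.615 to 1.1 CPM in KO libraries and 0.378 to 0.801 CPM in WT libraries; its part in the results was not tested.

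RefSeq promoter windows of GRCm38.p6, from 250 bases before to 50 bases after an annotated start, were available for Fads2, Tango6, Lrch1 and Gng7. They are shown because the genes were lower together and because the regions described below lie far from them. Windows are chr19:10101454-10101753 (minus strand) for Fads2, chr8:106682818-106683117 (plus strand) for Tango6, chr14:74947828-74948127 (minus strand) for Lrch1 and chr10:81014876-81015175 (minus strand) for the upstream start of Gng7. Capitals mark every match, on either strand, to the 7 motifs searched.
Fads2: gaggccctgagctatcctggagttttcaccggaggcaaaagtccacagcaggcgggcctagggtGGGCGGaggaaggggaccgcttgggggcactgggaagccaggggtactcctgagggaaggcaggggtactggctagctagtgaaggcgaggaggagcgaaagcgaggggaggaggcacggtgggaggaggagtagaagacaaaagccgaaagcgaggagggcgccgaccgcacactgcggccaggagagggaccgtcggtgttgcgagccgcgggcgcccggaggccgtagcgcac
Tango6: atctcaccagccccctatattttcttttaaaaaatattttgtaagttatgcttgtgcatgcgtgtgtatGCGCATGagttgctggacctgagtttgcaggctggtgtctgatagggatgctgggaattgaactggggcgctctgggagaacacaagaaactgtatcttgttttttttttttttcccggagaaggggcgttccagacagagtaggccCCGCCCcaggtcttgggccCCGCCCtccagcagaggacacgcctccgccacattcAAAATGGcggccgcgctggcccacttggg
Lrch1: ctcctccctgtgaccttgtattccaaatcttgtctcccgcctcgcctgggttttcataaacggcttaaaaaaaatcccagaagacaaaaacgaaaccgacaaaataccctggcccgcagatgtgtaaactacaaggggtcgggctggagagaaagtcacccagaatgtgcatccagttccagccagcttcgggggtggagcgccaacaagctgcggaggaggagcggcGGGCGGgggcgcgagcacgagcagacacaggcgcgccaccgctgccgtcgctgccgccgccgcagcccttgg
Gng7: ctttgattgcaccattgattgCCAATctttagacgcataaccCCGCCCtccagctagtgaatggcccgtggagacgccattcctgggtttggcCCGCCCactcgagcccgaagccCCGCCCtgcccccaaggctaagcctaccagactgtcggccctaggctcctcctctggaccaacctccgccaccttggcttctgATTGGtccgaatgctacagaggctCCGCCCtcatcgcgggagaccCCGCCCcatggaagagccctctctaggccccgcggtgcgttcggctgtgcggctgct
The motifs were TATAAA, the core promoter element that binds TBP; CCAAT, bound by NF-Y; GGGCGG, the GC box bound by SP1; CCGGAAG, of the ETS family; GCGCATG, of NRF1; CCATNTT, of YY1; and CACGTG, the E-box. The GC box was found in all 4 windows, 5 times in Gng7, 2 times in Tango6 and 1 time each in Fads2 and Lrch1, while 35.7% of the 32851 promoter windows of the table hold it. Gng7 also held CCAAT 2 times, a motif of 37.4% of windows. Tango6 held 1 GCGCATG, found in 3.91% of windows, and 1 CCATNTT, found in 16.1%. TATAAA, with 13.6% of windows, and CCGGAAG, with 8.86%, were in none of the 4. A window at a second annotated start of Gng7, chr10:81001316-81001615, held 1 CACGTG, a motif of 7.15% of windows, and no other. No 2 matches overlapped. The GC content was 67.0% for Fads2, 52.7% for Tango6, 60.0% for Lrch1 and 63.7% for the upstream Gng7 window, beside a median of 52.7% over the table, and the windows held 23, 12, 24 and 20 CpG, beside a median of 7.

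Fads2, which spans chr19:10062765-10101503 on the minus strand and was measured through 2 regions, was lower in the KO lines in both states, and its activated KO values also differed by line. The summed regions covered 14.3% of its span, the most of the 5 genes, and 6.05% of that of Tango6, the least. The unactivated gene value was 1.5, 1.44 and 1.45 CPM in KO1 and 0.899, 1.15 and 0.951 CPM in KO2, against 4.96, 6.12 and 4.35 CPM in the WT clone and 3.75, 4.4 and 3.78 CPM in parental WT. All 6 KO libraries lay below all 6 WT libraries, and the fitted log2 change was -1.90 ± 0.20 (SE; 24 libraries in the fit), which is 3.73-fold lower. In these bulk samples, fewer cells with a given RNA and less of it per cell cannot be told apart. In activated cells it was 2.2, 3.65 and 2.23 CPM in KO1 and 0.921, 1.09 and 0.785 CPM in KO2, against 6.77, 13 and 5.84 CPM in the WT clone and 4.68, 7.03 and 4.63 CPM in parental WT. The groups did not overlap here either, and the log2 change was -2.10 ± 0.19, or 4.29-fold lower. Taken by line, it was -2.86 ± 0.27 for KO2 alone and -1.34 ± 0.24 for KO1 alone against both WT lines.

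Tango6 spans chr8:106683068-106851439 on the plus strand and was measured through 8 regions. Of the 5 genes it had the widest gap between genotypes in unactivated cells. Its gene value there was 3.9, 3.66 and 3.53 CPM in KO1 and 3.13, 3.89 and 2.76 CPM in KO2, against 17.4, 13.7 and 17 CPM in the WT clone and 13.5, 17.9 and 8.63 CPM in parental WT. All KO libraries were below all WT libraries, with a log2 change of -2.07 ± 0.22, or 4.21-fold lower. In activated cells it was 10.9, 8.83 and 5.35 CPM in KO1 and 5.46, 6.04 and 2.72 CPM in KO2, against 18, 14.3 and 11.1 CPM in the WT clone and 16.2, 10.2 and 7.98 CPM in parental WT. The ranges overlapped, since 2 of the 6 KO libraries were above the lowest WT library, and the log2 change was -1.03 ± 0.22, or 2.05-fold lower. Within each of the 3 replicate numbers, both KO values were below both WT values, while for activated Gng7 this held in 1 of 3. The labels do not say that equal numbers belong together. This order was not counted over all gene values, so nothing is read from it. By line it was -1.44 ± 0.28 for KO2 alone and -0.62 ± 0.27 for KO1 alone. The difference between both states in the KO effect was 1.04 ± 0.31 on the log2 scale, activated minus unactivated.

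Lrch1 spans chr14:74754673-74948007 on the minus strand and was measured through 15 regions. Its gene value varied least between cultures, with a pooled SD of 0.142 in log2 CPM within groups, beside 0.221 to 0.422 for the other 4 genes. That holds for the sum only. Its highest region had 10.1, 13.9 and 5.73 CPM in unactivated parental WT. This region varied against the other regions, with Pearson's r of -0.55 over 24 libraries after subtraction of the group mean. In unactivated cells the gene value was 10.4, 9.46 and 8.49 CPM in KO1 and 10.0, 9.87 and 8.84 CPM in KO2, against 18.7, 18.8 and 18.6 CPM in the WT clone and 16.4, 20.6 and 15.2 CPM in parental WT. The groups did not overlap, and the log2 change of -0.92 ± 0.12 means 1.89-fold lower. In activated cells it was 11.4, 12.4 and 14.9 CPM in KO1 and 11.5, 12.2 and 14.3 CPM in KO2, against 17.6, 18.9 and 19.7 CPM in the WT clone and 16.3, 16.7 and 18.1 CPM in parental WT. Again all KO libraries lay below all WT libraries, by a log2 change of -0.48 ± 0.12, or 1.4-fold. KO1 and KO2 alone gave nearly equal values, -0.93 ± 0.15 and -0.91 ± 0.15 unactivated and -0.47 ± 0.15 and -0.49 ± 0.15 activated.

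Gng7, with 3 regions in its span chr10:80948624-81014925 on the minus strand, was lower in the KO lines in unactivated cells, while its activated values overlapped. The unactivated gene value was 4.93, 5.26 and 3.62 CPM in KO1 and 3.91, 5.04 and 3.04 CPM in KO2, against 8.51, 8.22 and 12.2 CPM in the WT clone and 7.0, 11.2 and 5.39 CPM in parental WT. The groups were apart by a narrow margin, the highest KO library at 5.26 CPM and the lowest WT library at 5.39 CPM, with a log2 change of -1.02 ± 0.20, or 2.03-fold lower. In activated cells it was 4.14, 4.86 and 4.8 CPM in KO1 and 2.54, 4.13 and 2.63 CPM in KO2, against 4.22, 4.53 and 3.81 CPM in the WT clone and 5.92, 3.42 and 3.11 CPM in parental WT. Here 2 of 6 KO libraries were below the lowest WT library, and the log2 change was -0.14 ± 0.20. KO1 alone stood at 0.14 ± 0.24 and KO2 alone at -0.43 ± 0.25, so the label of a gene lower in both lines holds for Gng7 in unactivated cells and not in activated KO1 cells.

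Ss18, with 3 regions in its span chr18:14625629-14684419, was lower in the KO lines in both states, by less in activated cells. Its unactivated gene value was 2.34, 2.67 and 1.78 CPM in KO1 and 2.45, 2.4 and 2.31 CPM in KO2, against 4.83, 5.56 and 5.88 CPM in the WT clone and 4.27, 6.54 and 4.25 CPM in parental WT. No KO library reached a WT library, and the log2 change was -1.17 ± 0.15, or 2.25-fold lower. In activated cells it was 3.3, 3.04 and 3.18 CPM in KO1 and 2.83, 2.34 and 2.51 CPM in KO2, against 4.98, 4.53 and 3.95 CPM in the WT clone and 5.52, 4.58 and 3.47 CPM in parental WT. The groups stayed apart, with 3.3 CPM as the highest KO value and 3.47 CPM as the lowest WT value, and the log2 change was -0.66 ± 0.15, or 1.58-fold lower.

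**Figure D1:**
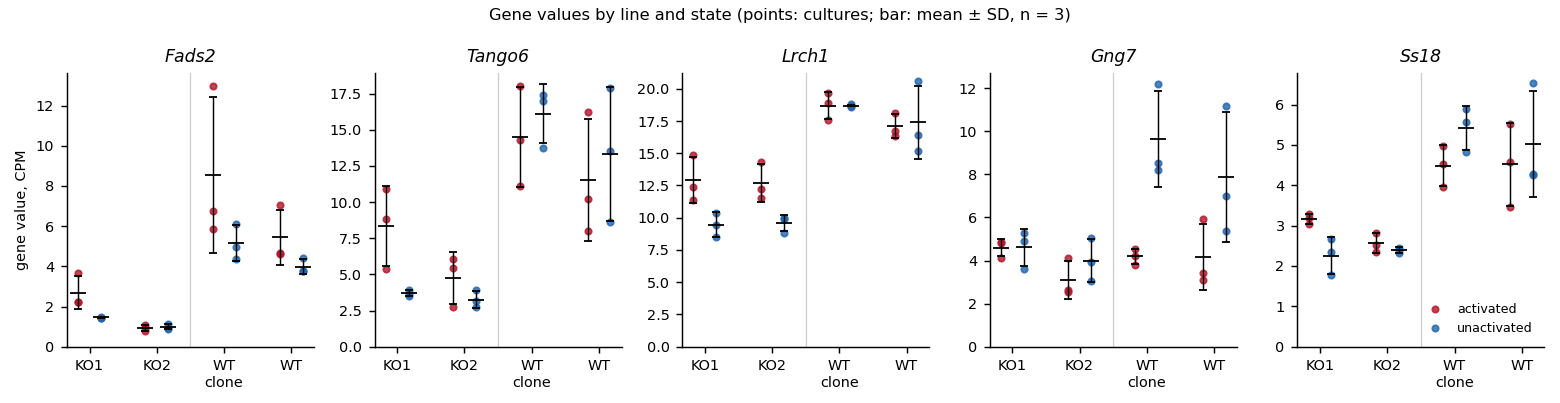
Gene values in CPM (vertical axis, from 0) for each gene by line, KO lines left of the grey line and WT lines right of it, with activated cultures in red left of unactivated cultures in blue; points are cultures and bars the mean ± SD of 3. KO points lie below WT points in all 5 genes when unactivated, and in Fads2, Lrch1 and Ss18 when activated, while activated Tango6 and Gng7 overlap.

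Groups of 6 KO and 6 WT libraries were thus apart for all 5 genes in unactivated cells and for 3 of 5 in activated cells. Over all 4510 gene values, all 6 KO libraries lay below all 6 WT libraries for 1.53% in unactivated and 1.13% in activated cells. Of all gene values tested, 3.1% were called lower in the unactivated KO lines and 2.33% in the activated ones at an adjusted p under 0.05, and since the genes were chosen on these contrasts, nothing is read from their own count against any of these shares. In all, edgeR called 140 gene values lower in unactivated and 105 in activated KO cells, and 37 in both. It called 156 higher in unactivated and 286 in activated KO cells; with libraries scaled on gene values alone the activated split was 241 higher and 156 lower. Per kilobase of summed region, the level in the unactivated KO lines was 0.479 CPM per kb for Gng7, 0.366 for Lrch1, 0.342 for Tango6, 0.299 for Ss18 and 0.222 for Fads2. In the unactivated WT lines Tango6 had the highest level at 1.44 CPM per kb, followed by Gng7 at 0.975, Fads2 at 0.823, Lrch1 at 0.694 and Ss18 at 0.672 CPM per kb.

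In the order of group means from high to low, the 4 WT groups came before the 4 KO groups for Fads2, Tango6, Lrch1 and Ss18, and their neighbours on the WT side overlapped. Fads2 had 3 gaps, between unactivated parental WT and activated KO1, between activated KO1 at 2.69 ± 0.832 CPM (SD, n = 3) and unactivated KO1 at 1.46 ± 0.0328 CPM, and between unactivated KO1 and unactivated KO2. For Tango6 every neighbour overlapped the next, the lowest WT group, activated parental WT, and the highest KO group, activated KO1, among them. Lrch1 had a gap between activated parental WT and activated KO1, and another between activated and unactivated KO2. Ss18 had gaps between the activated WT clone and activated KO1 and between activated KO1 and activated KO2. For Gng7 the means of both unactivated WT groups stood above those of the other 6 groups. The lowest library of unactivated parental WT, at 5.39 CPM, was still below the highest of activated parental WT, at 5.92 CPM. The other 6 groups all overlapped their neighbours between 4.61 ± 0.865 CPM in unactivated KO1 and 3.1 ± 0.894 CPM in activated KO2.

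In Tango6, Lrch1 and Ss18 the regions of a gene stood at different KO against WT values. Both regions of Fads2 were lower, at -1.94 ± 0.21 and -1.52 ± 0.30 in unactivated cells. In activated cells they stood further apart, at -2.36 ± 0.21 and -0.80 ± 0.25. In each gene 1 region held much of the value: 95.8% in Gng7, 90.4% in Fads2, 88.4% in Tango6, 65.2% in Ss18 and 40.2% in Lrch1, beside a median of 61.9% over 3143 genes measured through 2 or more regions, with quartiles of 46.0% and 81.1%. The highest region is the one with the largest mean CPM over all 24 libraries. Since it is a large part of the sum on which the gene was chosen, the KO against WT values of regions are given without a test.

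In Tango6, among the 4 regions with enough counts, the large KO against WT difference was in the highest one. This region, chr8:106802312-106803594, is 1283 bases long and begins 119 kb downstream of the annotated start. In unactivated cells it had 3.18, 2.56 and 2.6 CPM in KO1 and 2.36, 2.83 and 1.9 CPM in KO2, against 16.7, 12.3 and 16.4 CPM in the WT clone and 12.4, 17.2 and 7.31 CPM in parental WT, a log2 change of -2.41 ± 0.27. The other 7 regions together had 0.88 ± 0.146 CPM in KO libraries and 0.978 ± 0.332 CPM in WT libraries (SD, n = 6 each), a log2 change of -0.15 ± 0.21. Their KO and WT ranges overlapped in part, with 3 of the 6 WT libraries above the highest KO library and no KO library below the lowest WT library. Singly, the other 3 regions with enough counts stood at -0.34 ± 0.39, 0.02 ± 0.33 and -0.13 ± 0.29. With these SEs, a small difference in any of them cannot be told from none. In activated cells the log2 change was -1.22 ± 0.26 for the highest region and 0.02 ± 0.20 for the others.

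Ss18 had the same pattern. Its highest region, chr18:14675391-14676338, is 948 bases long and had 1.24 ± 0.201 CPM in unactivated KO libraries and 4.0 ± 1.13 CPM in unactivated WT libraries, with no overlap and a log2 change of -1.69 ± 0.21. The other 2 regions together had 1.08 ± 0.211 CPM in KO libraries and 1.23 ± 0.601 CPM in WT libraries, a log2 change of -0.18 ± 0.24. These other regions overlapped between genotypes. In activated cells the values were -1.13 ± 0.20 for the highest region and -0.02 ± 0.23 for the others.

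Lrch1 is the gene with the most regions, 11 of them with enough counts. Its highest region, chr14:74905405-74909701, is 4297 bases long, begins 38.2 kb downstream of the annotated start and had 3.1 ± 0.751 CPM in unactivated KO libraries and 10.7 ± 2.89 CPM in unactivated WT libraries (SD, n = 6 each). The log2 change was -1.79 ± 0.19, against -0.20 ± 0.15 for the other 14 regions together, whose KO and WT ranges overlapped. Among the 10 other measured regions, unactivated log2 changes ran from -1.20 to 0.06. The largest of these belonged to chr14:74880663-74883236, with 0.22 ± 0.0924 CPM in KO libraries and 0.511 ± 0.093 CPM in WT libraries, a log2 change of -1.20 ± 0.32. The next regions by level, chr14:74934926-74941209 and chr14:74943356-74944654, lie nearer the start and stood at -0.13 ± 0.17 and 0.06 ± 0.19. In activated cells the highest region was at -1.05 ± 0.19 and the others together at -0.24 ± 0.15, with all 10 others at or below 0, between -0.76 and -0.02.

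Fads2 was lower in both of its regions. The highest region, chr19:10064002-10067096, is 3095 bases long and lies toward the 3′ end of the gene, 34.4 kb from the start. It had 1.08 ± 0.238 CPM in unactivated KO libraries and 4.14 ± 0.895 CPM in unactivated WT libraries, and the other region, chr19:10070031-10072475, had 0.148 ± 0.0683 CPM in KO libraries and 0.413 ± 0.0583 CPM in WT libraries. Neither region overlapped between genotypes, and their log2 changes were -1.94 ± 0.21 and -1.52 ± 0.30. In activated cells they were -2.36 ± 0.21 and -0.80 ± 0.25, and the other region then overlapped between genotypes.

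In Gng7 the value was nearly all 1 region, so its regions say little of each other. The highest region, chr10:80985676-80991466, is 5791 bases long and begins 23.5 kb downstream of the upstream start and 9.9 kb downstream of the other annotated start. It had 4.17 ± 0.854 CPM in unactivated KO libraries and 8.57 ± 2.61 CPM in unactivated WT libraries, a log2 change of -1.04 ± 0.20 with no overlap. The other 2 regions together had 0.127 ± 0.0727 CPM in KO libraries and 0.193 ± 0.0468 CPM in WT libraries, with an overlap and a log2 change of -0.60 ± 0.40. The SE is too wide there to tell a change like that of the highest region from none.

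**Figure D2:**
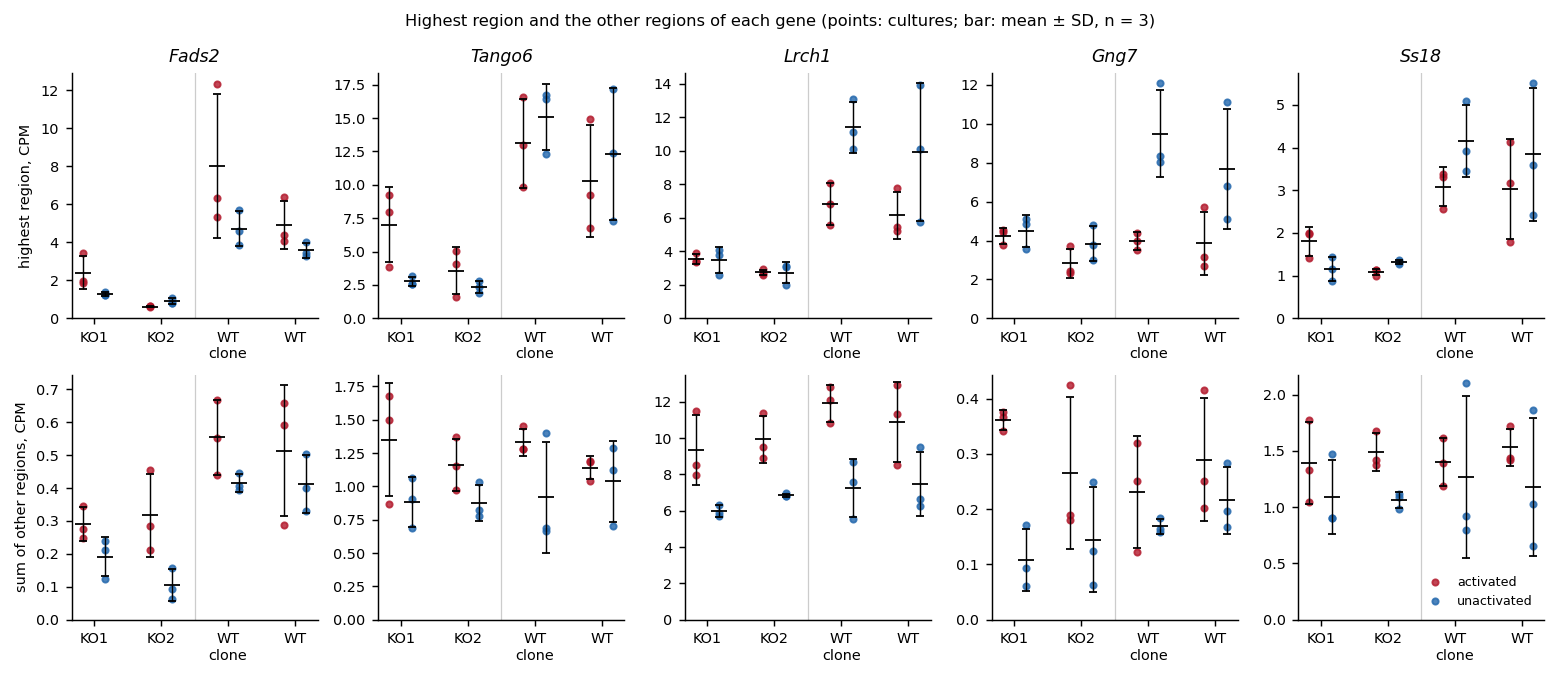
CPM by library (vertical axes, from 0) of the highest region of each gene (upper row) and of the sum of its other regions (lower row), by line, with activated cultures in red left of unactivated cultures in blue; points are cultures and bars the mean ± SD of 3. In Tango6, Lrch1 and Ss18 the KO lines sit below the WT lines in the upper row when unactivated and overlap them in the lower row.

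**Figure D3:**
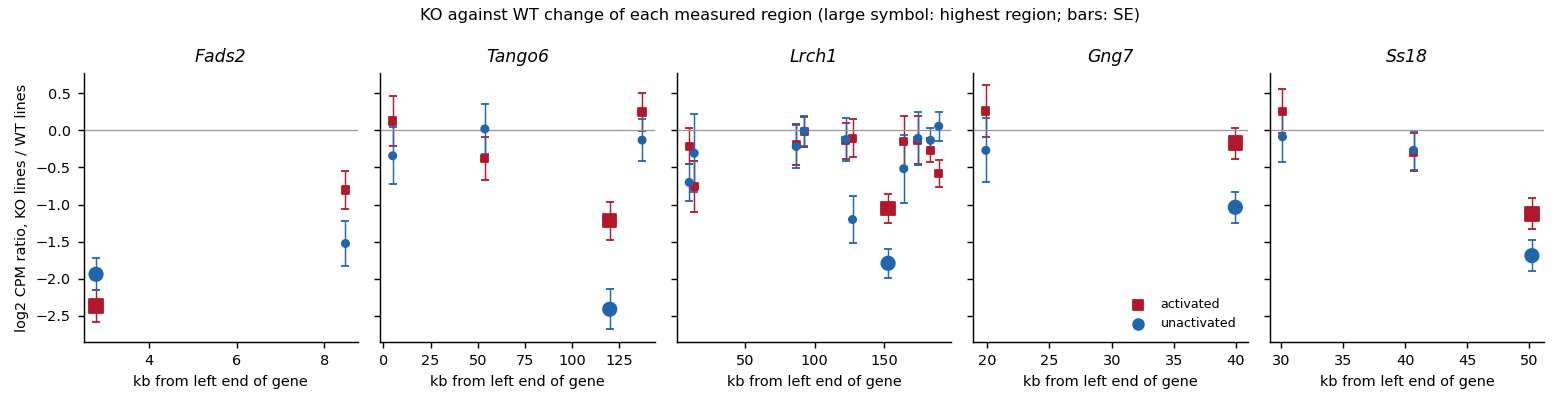
The log2 ratio of KO lines to WT lines (vertical axis) for each measured region, against the distance of its middle from the left end of the gene in kb (horizontal axis), with large symbols for the highest region and bars for the SE; activated in red, unactivated in blue. The highest region of Tango6 lies at -2.41 when unactivated while its other 3 measured regions lie between -0.34 and 0.02.

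Such a gap between regions was uncommon over all genes. Taken from group means with 0.05 CPM added, the KO against WT log2 ratio of the highest region minus that of the other regions was -2.25 for Tango6, -1.57 for Lrch1, -1.47 for Ss18, -0.66 for Fads2 and -0.58 for Gng7 in unactivated cells. Over 1685 genes whose other regions together averaged at least 0.2 CPM, the median of this difference was 0.03, with quartiles of -0.25 and 0.3, and 3.26% of the genes were below -1. Of these 1685 genes, 69 other than the 5 were called lower in unactivated KO lines. Among these 69, 13 were below -1, or 18.8%, with a median of -0.26. Other genes called lower did not meet the condition on their other regions and are not in this count. In activated cells the difference was -1.34 for Fads2, -1.16 for Tango6, -1.03 for Ss18, -0.79 for Lrch1 and -0.37 for Gng7. Of the 1685 genes, 1.54% were then below -1. Among the 44 of them, other than the 5, that were called lower in activated KO lines, 4 were below -1. These are descriptions, since a gene chosen for a lower sum is likelier to have a lower highest region.

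Activation, 48 h of culture with the stimulus against 48 h without it, was a contrast that did not choose the genes, although it uses the same libraries, and a choice on low unactivated KO values and high unactivated WT values can by itself move both activation values. In the KO lines, activation raised 24.1% of gene values past the threshold and lowered 4.24% (edgeR quasi-likelihood test, Benjamini-Hochberg adjusted p under 0.05), and Tango6 and Lrch1 rose. Tango6 had 6.54 ± 2.88 CPM in activated and 3.48 ± 0.453 CPM in unactivated KO cells (SD, n = 6 each), a log2 change of 0.86 ± 0.22 with an adjusted p of 0.00447 in edgeR. Lrch1 had 12.8 ± 1.47 CPM in activated and 9.52 ± 0.741 CPM in unactivated KO cells, at 0.43 ± 0.12 with an adjusted p of 0.00973 in edgeR. The median activation change over all gene values was 0.28 in the KO lines. Fads2 at 0.39 ± 0.21, Ss18 at 0.29 ± 0.15 and Gng7 at -0.18 ± 0.20 did not pass.

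In the WT lines, the same edgeR test called 16.4% of gene values higher with activation, and 5.41% lower, and Fads2 rose while Gng7 fell. Gng7 had 4.17 ± 1.0 CPM in activated and 8.77 ± 2.57 CPM in unactivated WT cells (SD, n = 6 each), a log2 change of -1.06 ± 0.20 with an adjusted p of 0.000183 in edgeR. Fads2 had 6.99 ± 3.11 CPM in activated and 4.56 ± 0.885 CPM in unactivated WT cells, at 0.59 ± 0.18 with an adjusted p of 0.0182 in edgeR. Tango6 at -0.18 ± 0.21, Lrch1 at -0.01 ± 0.12 and Ss18 at -0.21 ± 0.14 did not pass. With libraries scaled on gene values alone, 523 values were called higher and 473 lower in the WT lines, in place of 740 and 244, and 581 higher and 486 lower in the KO lines, in place of 1086 and 191. Under that scaling Fads2 in WT lines and Tango6 and Lrch1 in KO lines were no longer called, at 0.40, 0.56 and 0.12, and the fall of Gng7 in WT lines was still called. The call of Fads2 in WT lines was also lost without activated parental WT replicate 2 (0.48), without unactivated WT clone replicate 3 (0.54) and without activated WT clone replicate 2 (0.37).

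The regions of Lrch1 and Gng7 differed in their change with activation. The highest region is a large part of the sum on which each gene was chosen, in these same unactivated libraries. That choice can by itself move its activation value, and the region tests of this paragraph and the next share that limit. In the WT lines the highest region of Lrch1 fell with activation, with 6.49 ± 1.26 CPM in activated and 10.7 ± 2.89 CPM in unactivated cells, a log2 change of -0.72 ± 0.18 and an adjusted p of 0.00434 in edgeR. Its other regions together rose, with 11.4 ± 1.64 CPM in activated and 7.36 ± 1.51 CPM in unactivated cells, at 0.63 ± 0.15 and an adjusted p of 0.00254 in edgeR. The gene value of Lrch1, at -0.01 ± 0.12, was the sum of both. In the KO lines its highest region stood at 0.02 ± 0.19 while the others rose by 0.59 ± 0.15, with an adjusted p of 0.00395 in edgeR. A test of whether the regions of a gene change alike (edgeR's diffSpliceDGE, gene-level F test) called Lrch1 in WT lines with an adjusted p of 5.37e-12 and in KO lines with 6.06e-05. It called 9.7% of 1319 genes in WT lines and 12.5% in KO lines.

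Gng7 was the other gene called by that test, with an adjusted p of 0.00101 in WT lines and 0.00868 in KO lines. Its highest region fell in the WT lines, at -1.13 ± 0.20 with an adjusted p of 0.000136 in edgeR, while the others were at 0.43 ± 0.35. In the KO lines the other regions rose by 1.29 ± 0.36, with an adjusted p of 0.00891 in edgeR, from a low level of 0.313 ± 0.103 CPM in activated and 0.127 ± 0.0727 CPM in unactivated cells, and the highest region was at -0.26 ± 0.21. The regions of Tango6, Ss18 and Fads2 were not called, with adjusted p of 0.0776, 0.185 and 0.696 in WT lines and 0.816, 0.488 and 0.151 in KO lines (diffSpliceDGE). In the WT lines Tango6 was called without unactivated parental WT replicate 3 (adjusted p = 0.0167 in diffSpliceDGE), without activated parental WT replicate 1 (0.024), without unactivated WT clone replicate 2 (0.0289), and with replicate number as a block (0.0318). Ss18 was called there without unactivated parental WT replicate 3 (0.00647) or unactivated WT clone replicate 2 (0.0172). The other region of Fads2 rose with activation in the KO lines, by 1.08 ± 0.31 with an adjusted p of 0.0101 in edgeR.

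**Figure D4:**
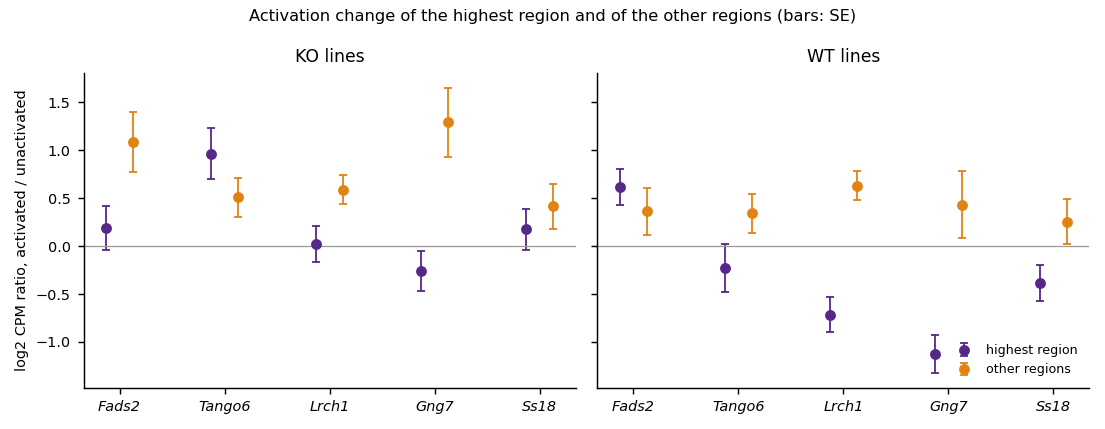
The log2 ratio of activated to unactivated cells (vertical axis) for the highest region (purple) and the other regions together (orange) of each gene, in KO lines (left) and WT lines (right); bars are SE. In the WT lines Lrch1 lies at -0.72 for the highest and 0.63 for the other regions, and Gng7 at -1.13 and 0.43.

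Between lines of 1 genotype, Fads2 in activated KO cells was the only called difference among these genes. It had 0.933 ± 0.155 CPM in KO2 and 2.69 ± 0.832 CPM in KO1 (SD, n = 3 each), a log2 change of -1.53 ± 0.29 with an adjusted p of 0.012 in edgeR, lower in all 3 KO2 libraries. That contrast called 0.155% of gene values. The gap lay in the highest region, at 0.635, 0.638 and 0.573 CPM in KO2 against 1.85, 3.41 and 1.96 CPM in KO1, while the other region had 0.317 ± 0.125 CPM in KO2 and 0.29 ± 0.0512 CPM in KO1. The call was lost without activated KO1 replicate 2, activated KO2 replicate 1 or activated KO2 replicate 3, with log2 changes of -1.24, -1.52 and -1.42. DESeq2 called the same gene there and no other of the 5. Tango6 was at -0.82 ± 0.31 for activated KO2 against KO1, with an adjusted p of 0.586 in edgeR and an unadjusted p of 0.0137. In unactivated cells edgeR called no gene value different between KO2 and KO1 (0% of 4510), with 206 at an unadjusted p under 0.05 and 2 called by DESeq2, none of them among the 5 genes. Between the WT clone and parental WT, edgeR called 0.133% of gene values in unactivated and 0.0887% in activated cells, again 0 of the 5 genes in either state; DESeq2 also called 0 of the 5, and at an unadjusted p under 0.05 edgeR had 0 in unactivated cells and 1, Fads2, in activated cells. No activation response was called as different between KO2 and KO1 or between the WT clone and parental WT (0% of 4510 in each, by edgeR, and 0 by DESeq2), with 148 and 161 gene values at an unadjusted p under 0.05. Of the 5 genes, Fads2 for KO2 minus KO1, at -0.98 ± 0.41, was the 1 at an unadjusted p under 0.05.

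The highest regions of 4 of the genes also varied together from culture to culture. Over the 24 libraries, after subtraction of the group mean, Pearson's r between the highest regions of Tango6, Lrch1, Gng7 and Ss18 was 0.46 to 0.81, and between each of these and that of Fads2 it was 0.21 to 0.26. All of these points share their library and its scaling. The same 4 regions varied against the share of a library's counts that lay in regions inside 1 gene, with r of -0.61 to -0.70, and Fads2 did not, with r of -0.01. The other regions of the 5 genes varied with that share, with r of 0.27 to 0.84. This share was 0.936% in unactivated KO libraries (0.849% to 1.04%) and 0.931% in unactivated WT libraries (0.772% to 1.2%). In activated cells it was 1.11% in KO libraries (0.996% to 1.18%) and 1.01% in WT libraries (0.909% to 1.09%). In unactivated parental WT all 4 moved together, with replicate 2 at 0.57 to 0.60 and replicate 3 at -0.51 to -0.70 from the group mean on the log2 scale. The part of this share in the KO against WT differences was not tested.

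**Figure D5:**
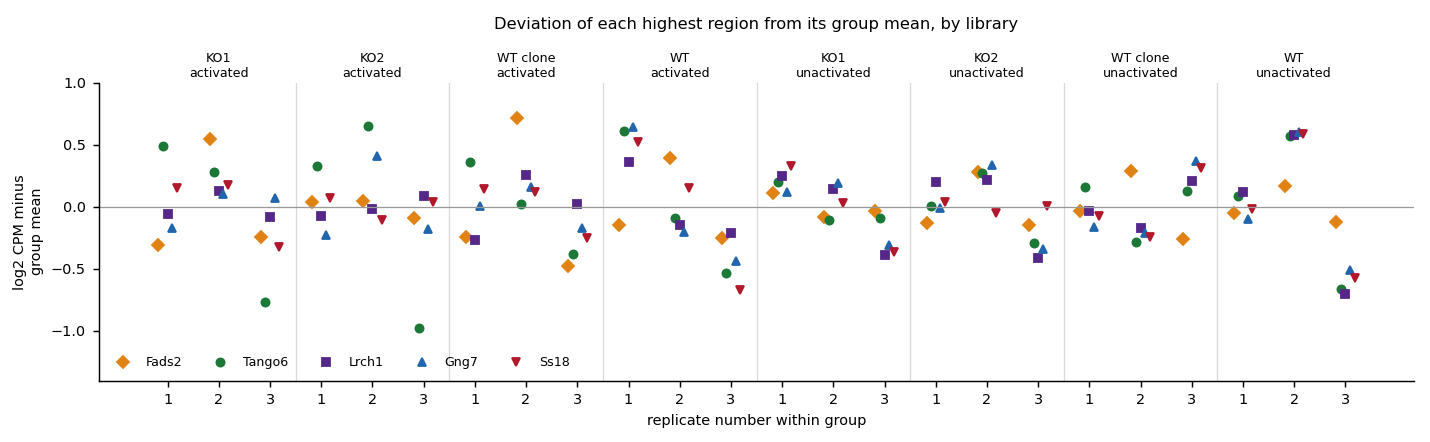
Deviation of the highest region of each gene from its group mean in log2 CPM (vertical axis), by library (horizontal axis, replicate number within each of the 8 groups, activated groups first). Tango6, Lrch1, Gng7 and Ss18 lie together in unactivated parental WT, at 0.57 to 0.60 in replicate 2, while Fads2 follows its own course.

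Of the 5 genes, Tango6, Ss18 and Lrch1 were also near to each other in their pattern over groups. Over the 8 group means of log2 CPM, among 3979 named genes, Ss18 was the gene most like Tango6, with r of 0.976, and Tango6 the most like Ss18 and Lrch1, the r with Lrch1 being 0.966. Lrch1 and Ss18 had r of 0.959. Fads2 had r of 0.939 with Tango6, 0.901 with Ss18 and 0.884 with Lrch1. The next were Ccdc114 for Tango6 at 0.973, Cacng8 for Ss18 at 0.975 and Gcm2 for Lrch1 at 0.956. Fads2 was most like Klf6 (0.961), a zinc-finger transcription factor, Pik3r5 (0.959), a regulatory subunit of PI3-kinase gamma, and Arap2 (0.954), a GTPase-activating protein. Gng7 was most like Atp6v0e2 (0.981), a subunit of the vacuolar proton pump, Trappc6a (0.972), a component of a vesicle tethering complex, and Themis2 (0.971), a B cell signalling adaptor, and its r with the other 4 genes was 0.487 to 0.672. These correlations are over 8 points that share the genotype contrast used to choose the genes.

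The nearest measured gene on each side and any other measured gene within 200 kb came to 14 genes. Of these, 2 were called lower and 0 higher in unactivated KO cells, beside 3.1% lower and 3.46% higher over all gene values, and 0 were called lower and 1 higher in activated KO cells, beside 2.33% and 6.34%. Fth1, the ferritin heavy chain, 77.7 kb from Fads2, was lower in unactivated KO cells at 1.89 CPM against 3.14 CPM in WT cells, a log2 change of -0.71 ± 0.20 with an adjusted p of 0.0332 in edgeR. Lcp1, the actin-bundling protein L-plastin, 183 kb from Lrch1, was lower in unactivated KO cells at 11.4 CPM against 21.7 CPM in WT cells, at -0.91 ± 0.19 with an adjusted p of 0.00379 in edgeR. Rubcnl, a gene of the autophagy pathway 68.0 kb from Lrch1, was higher in activated KO cells at 5.07 CPM against 3.2 CPM in WT cells, at 0.66 ± 0.13 with an adjusted p of 0.000681 in edgeR. The nearest measured neighbours of Tango6, Gng7 and Ss18, such as Utp4 at -0.44 ± 0.19, Zbtb7a at 0.01 ± 0.34 and Taf4b at -0.33 ± 0.23 in unactivated cells, did not pass. Regions outside genes within 200 kb were at low levels, and their differences were not tested. Summed values in unactivated KO against WT libraries were 0.522 and 0.751 CPM for Tango6 and 0.407 and 0.58 CPM for Gng7. They were 0.552 and 0.503 CPM for Fads2, 1.14 and 1.13 CPM for Lrch1, and 0.172 and 0.175 CPM for Ss18. Activated values were 0.68 and 0.621 CPM for Tango6 and 0.428 and 0.443 CPM for Gng7. For Fads2, Lrch1 and Ss18 the activated KO value was the higher one.

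Other genes of the 5 pathways are given beside the shares over all gene values, and nothing is read from their counts. These shares were 3.46% called higher and 3.1% called lower in unactivated KO cells and 6.34% and 2.33% in activated ones. Of 14 measured genes of fatty acid desaturation and elongation, none was called in either state by edgeR or DESeq2, with 2 in unactivated and 1 in activated cells at an unadjusted p under 0.05. Within this list, Srebf2 was at -0.43 ± 0.18 and Acsl3 at -0.25 ± 0.20 in unactivated cells. In activated cells Acsl3 was at -0.44 ± 0.20. The median of that list was -0.21 in unactivated and -0.20 in activated cells, beside -0.04 and 0.07 over all gene values. Of 10 measured genes of transport between endoplasmic reticulum and Golgi, Sec16b, a scaffold of exit sites, was called lower in unactivated KO cells, at 0.166 ± 0.105 CPM against 0.344 ± 0.0965 CPM in WT cells (SD, n = 6 each), a log2 change of -1.15 ± 0.35 with an adjusted p of 0.0436 in edgeR, and was not called by DESeq2. In activated cells edgeR and DESeq2 called none of these transport genes, with 1 at an unadjusted p under 0.05. Of 14 measured LRCH, DOCK and CDC42 genes, Dock10, a guanine nucleotide exchange factor, was lower in unactivated KO cells at -0.67 ± 0.19, with an adjusted p of 0.0285 in edgeR. Dock9, another exchange factor of CDC42, was higher in activated KO cells at 0.92 ± 0.17, with an adjusted p of 0.000521 in edgeR. At an unadjusted p under 0.05 this list had 4 in unactivated and 2 in activated cells. None of 15 measured G protein subunits and regulators and none of 11 measured BAF subunits was called in either state by edgeR or DESeq2. At an unadjusted p under 0.05 the G protein list had 5 in unactivated and 3 in activated cells, and the BAF list had 0 in both. The G protein and BAF list medians were -0.11 and -0.06 in unactivated and 0.09 and 0.06 in activated cells. Gna13 had 0.62 ± 0.22 and Gnb5 1.08 ± 0.37 in activated cells, with adjusted p of 0.0868 and 0.0724 in edgeR. Gng12, a gamma subunit like Gng7, had -0.76 ± 0.29 in unactivated cells, with an adjusted p of 0.128 in edgeR.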

How the data were processed

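Total RNA of 24 CH12 cultures was measured; the other 9 samples of the series were not analysed here. For each library the authors deposited estimated counts, which are not whole, beside TPM values, over 171152 targets, of which 49745 are numbered regions. The TPM values were not used. Per the submitters' processing notes, kallisto 0.43.0 and DESeq2 were used with build GRCm38.p5. Reads matching several targets are shared by kallisto's model, so reads of a region can be credited to a transcript lying over it.

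Counts were rounded and summed over regions wholly inside exactly 1 RefSeq gene of GRCm38.p6, with 12 locus-wide entries left out. Library size was the total over all targets, with TMM scaling over the 61074 targets passing edgeR's filterByExpr. Gene values and regions were fitted in edgeR 4.0.16 quasi-likelihood models (limma 3.58.1, R 4.3.3) with 8 group means, and called at a Benjamini-Hochberg adjusted p under 0.05 over all tested. The models were tested on simulated data. The planned test of regions against each other is given for activation only, because the genes were chosen on the KO against WT contrast. The 5 genes, the lists and the marker genes were chosen with earlier results of these data known. The text names these genes, Zmynd8, the 3 genes most like each, neighbours within 200 kb, the nearest on each side, and up to 3 genes per list with the smallest p. One gene that this rule selects is not reported here. Library deviations of equal replicate numbers correlated at 0.186, 0.165 and 0.295 between activated KO and WT cells, and at under 0.1 for at least 1 number in the other comparisons. Alternatives were relative log expression scaling, scaling on gene values alone, no filter, DESeq2 1.42.0, a replicate block, only the libraries compared, counts summed per line, regions overlapping the span, single lines, each library left out, and, chosen after seeing the data, the highest region and the other regions apart.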

Additional observations from a re-analysis of the deposited data

Results flagged for a closer look

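Among 20 sets of 6 libraries (5 genes, each genotype and state), 1 held a library far from the rest. Fads2 in activated WT cells was 13 CPM in WT clone replicate 2, and the gap to the next library was 0.712 of the range of the 6. Chance sets off about 1 such set in 20. Without this library the activation change of Fads2 in WT lines was 0.37 on the log2 scale and was not called, with an adjusted p of 0.114 in edgeR. None of the 10 tests of a different activation response between lines of 1 genotype was called.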

How the results depend on the processing

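For the KO against WT values of the 5 genes, 154 of the alternatives other than leaving out a library stayed within the spread between cultures, 25 moved further and 1, the other regions of activated Tango6, went to the other sign. Activated Gng7, at -0.14, was also on the other side of 0 for KO1 alone (0.14), KO1 against parental WT (0.15), KO1 against the WT clone (0.14), its other regions, and without activated parental WT replicate 1 (0.029). By single lines, Fads2 in unactivated cells was -1.44 for KO1 against parental WT and -2.36 for KO2 against the WT clone on the log2 scale. In activated cells Fads2 was -1.34 for KO1 and -2.86 for KO2 against both WT lines, -1.78 for both KO lines against parental WT and -2.43 against the WT clone. KO1 alone was -1.01 against parental WT and -1.66 against the WT clone, and KO2 alone -2.54 and -3.19. Activated Tango6 was -0.46 for KO1 against parental WT and -1.61 for KO2 against the WT clone. With the highest region alone, chosen after seeing the data, unactivated Lrch1 was -1.79 and Ss18 -1.69, and activated Lrch1 was -1.05 and Ss18 -1.13. With the other regions, also chosen after seeing the data, the unactivated values were -1.52 for Fads2, -0.15 for Tango6, -0.20 for Lrch1, -0.60 for Gng7 and -0.18 for Ss18, and the activated ones -0.80, 0.023, -0.24, 0.26 and -0.023. Leaving out each library in turn gave, in unactivated cells, -1.95 to -1.83 for Fads2, -2.19 to -1.94 for Tango6, -0.97 to -0.85 for Lrch1, -1.13 to -0.85 for Gng7 and -1.23 to -1.05 for Ss18. In activated cells it gave -2.24 to -1.88, -1.15 to -0.87, -0.54 to -0.44, -0.28 to 0.03 and -0.74 to -0.58.

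Activation values changed sign for the other regions of Tango6 (0.34), Lrch1 (0.63), Gng7 (0.43) and Ss18 (0.26) in WT lines and of Gng7 (1.29) in KO lines, for Ss18 in KO lines with libraries scaled on gene values alone (-0.0078), and for Lrch1 in WT lines on leaving out single libraries (-0.062 to 0.055). The other region of Fads2 was at 0.13 for activated KO2 against KO1. The activation call of Fads2 in WT lines was also lost with only the libraries compared (0.59) and with counts summed per line (0.60), and that of Lrch1 in KO lines with no filter (0.43) and with counts summed per line (0.38); the cause was not tested. With counts summed per line, 174 gene values were called higher in activated KO cells, in place of 286.

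With the replicate number as a block, KO against WT values in the order Fads2, Tango6, Lrch1, Gng7, Ss18 were -1.89, -2.07, -0.92, -1.04 and -1.17 in unactivated and -2.08, -1.05, -0.48, -0.15 and -0.65 in activated cells. The block changed the call of Tango6 in the region test in WT lines and no other call for the 5 genes. Of the 24 libraries, 18 correlated best with their own number.

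Values from annotated transcripts, also intended, were not run, because transcripts could not be assigned to genes with the tables used here. Low counts limit the values of the other regions of Fads2 and Gng7, and of each single other region of Tango6.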
